A study of Mus musculus with 16 samples.

Results

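The effect of deleting 1 allele of Tip30 on liver RNA was measured over both Ncoa5 genotypes of a cross. All 16 livers of the series entered, 8 whose labels give 1 deleted Tip30 allele ("deleted" below) and 8 with Tip30 intact, and each of the 16 came from a different mouse. The intact livers were wild type (Ncoa5+/+Tip30+/+) or Ncoa5+/- (Ncoa5+/-Tip30+/+), and the deleted livers were Tip30+/- (Ncoa5+/+Tip30+/-) or carried both deletions (Ncoa5+/-Tip30+/-), with 4 mice in each genotype. All mice were females aged 5 months on a standard diet, and no mouse lacked both alleles of either gene. Polyadenylated RNA was sequenced from a frozen piece of liver that the labels describe as mainly hepatocyte. The sources used here do not give the deleted stretch of each gene, the strain or the litters, so the p-values measure the spread between these mice. Of 30199 genes, the 15263 whose normalized counts averaged 10 or more across the livers were tested.

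Tip30 is the common name of the protein encoded by Htatip2. It has a short-chain dehydrogenase fold, was found through its binding to the Tat protein of HIV, and is studied as a suppressor of tumours and metastasis in liver and other tissues. It has been tied to the nuclear import machinery, to endosomal traffic of the EGF receptor and to repression of oestrogen receptor targets. Ncoa5, the other gene of the cross, encodes a coactivator that binds nuclear receptors.

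Reads assigned to genes ranged from 24740706 to 37939978 per liver, and mitochondrial genes took 3.42% to 5.80% of them. Summed over 19 of 20 listed hepatocyte markers, the deleted livers held 2950103 to 4525904 normalized counts and the intact livers 3142869 to 4634223. Livers stood apart in 2 ways that touch the results. Zhx2, a transcriptional repressor of liver genes, lay between 8.77 and 26.3 normalized counts in 4 livers (wild type 1 and 2, Ncoa5+/- 1 and 4) and between 167 and 438 in the other 12. These 4 livers low in Zhx2 are all among the 8 intact ones and 0 are among the 8 deleted ones. Zhx2 level and the Tip30 genotype therefore cannot be told apart over them, and the main results are given with and without them. Without them 4 intact livers remain, and the smaller number of mice alone can raise a p-value. The liver Tip30+/- 4 lay with the intact livers for a group of sequence copies described below.

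Htatip2 (ENSMUSG00000039745, GRCm38 chromosome 7, 49759115 to 49773975, plus strand) was lower in every deleted liver than in every intact one. The intact livers held 1835 to 2910 normalized counts with a median of 2203, and the deleted livers 685 to 1088 with a median of 912. Htatip2 fell by 1.37 ± 0.09 (SE) on the log2 scale, to 38.7% of the intact level (95% interval -1.56 to -1.18 for the log2 value, adjusted p = 1.05e-07 by limma, two-sided exact permutation p = 0.000408). That exact p is the smallest the 4900 rearrangements within Ncoa5 genotype can give. Without the 4 livers low in Zhx2 the fall was 1.24 (adjusted p = 0.000135). Tip30+/- 4, at 741, was among the low ones. Ncoa5, coded on chromosome 2, held 339 to 480 normalized counts in the intact and 369 to 450 in the deleted livers, a log2 change of -0.01 ± 0.07 (adjusted p = 0.98 by limma).

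Few genes passed the threshold. At an adjusted p below 0.05 by limma 36 of 15263 genes were called, 0.236%, of which 19 rose (0.124%) and 17 fell (0.111%). The median log2 change over all genes was 0, and 21 of the 36 changed by more than 1 on the log2 scale. DESeq2 on the whole reads called 267 genes (1.75%) and edgeR 40 (0.262%). In the same fit by limma the Ncoa5 genotype called 1209 genes, 7.92%. At an unadjusted p below 0.05 the Tip30 comparison held 1824 genes (12%), 782 higher and 1042 lower. Deleted and intact livers did not overlap for 8 of the 36 called genes, and for 13 of all 15263 (0.0852%), 6 higher (0.0393%) and 7 lower (0.0459%). Among the 5 others of these 13, Rps6kc1, Gtpbp3, Slc22a7 and Psmd7 were lower and Il12rb1 higher in all deleted livers, with adjusted p between 0.0566 and 0.31. Without the 4 livers low in Zhx2 all 36 genes kept their sign, which their selection over the same mice favours. Only 3 of them passed, Htatip2, Hcn3 and Synm, and 4 genes were called in all (0.0262%). The count also moved with single livers: it was 147 without wild type 3 and 62 without Ncoa5+/- 3. It lay between 14 and 21 without any 1 of wild type 1, 2 or 4, Ncoa5+/- 1 or 4, Tip30+/- 1, 2 or 3, and Ncoa5+/-Tip30+/- 1 or 2.

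Some of the largest rises belonged to sequence copies of genes that lie near Htatip2. Of the 19 genes that rose, 7 are annotated as processed pseudogenes or as a miRNA gene, and 6 of them are described here. Ftl2-ps, Ftl1-ps2, Gm15590, Gm12164 and Mir692-1 match the coding sequence of Ftl1, and Gm11478 that of Rpl13a. Ftl1 encodes the ferritin light chain, which stores iron with the heavy chain, and Rpl13a encodes a protein of the large ribosomal subunit. A processed pseudogene is an intronless copy of a messenger RNA placed back into the genome. The 6 copies lie on chromosomes 4, 10, 11 and 17, while Ftl1 (chromosome 7, 45457944 to 45459884) and Rpl13a (45125558 to 45128761) lie 4.31 and 4.64 Mb from Htatip2, measured between gene centres here and below. The sequences below show how little tells a copy from its parent. They are the last 57 coding bases of Ftl1 before the stop codon with the same stretch of its 5 copies. For Rpl13a and its copy they are 60 coding bases, chosen as the stretch without a gap that differs most. Letters are from GENCODE M21 transcripts (GRCm38), read in the sense of the parent's coding strand, and capitals mark bases that differ from the parent.

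Ftl1: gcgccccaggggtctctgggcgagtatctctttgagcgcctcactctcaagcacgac

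Ftl2-ps: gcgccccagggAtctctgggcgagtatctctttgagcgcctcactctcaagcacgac

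Ftl1-ps2: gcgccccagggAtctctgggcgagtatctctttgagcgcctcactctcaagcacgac

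Gm15590: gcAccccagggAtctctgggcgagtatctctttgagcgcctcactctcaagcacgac

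Gm12164: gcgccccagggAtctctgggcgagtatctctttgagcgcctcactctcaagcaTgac

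Mir692-1: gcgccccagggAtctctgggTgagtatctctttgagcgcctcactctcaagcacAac

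Rpl13a: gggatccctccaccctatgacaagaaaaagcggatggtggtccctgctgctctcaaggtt

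Gm11478: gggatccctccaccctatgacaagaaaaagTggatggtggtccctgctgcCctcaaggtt

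Ftl2-ps and Ftl1-ps2 differ from Ftl1 at 1 base of this stretch, Gm15590 and Gm12164 at 2, and Mir692-1 at 3. Over their aligned length by blastn, Gm15590 matched Ftl1 at 99.1% of bases, Ftl2-ps at 98.7%, Ftl1-ps2 at 97.8%, Gm12164 at 96% and Mir692-1 at 94.6%. Gm11478 matched Rpl13a at 98%. The sources used here do not say how the authors counted reads that match several of these places, so the share of reads given to a copy or its parent is uncertain. The mature miRNA annotated in Mir692-1 is printed with its seed, bases 2 to 8, in capitals (RefSeq, GRCm38.p6).

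mmu-miR-692: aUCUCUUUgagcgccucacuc

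The whole of this 21-base sequence is also part of the Ftl1 coding stretch shown. The libraries were made from polyadenylated RNA with inserts far longer than a mature miRNA, so reads counted to Mir692-1 do not measure one.

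For all 6 copies, the 7 other deleted livers lay above every intact liver while Tip30+/- 4 lay within the range of the intact livers. Tip30+/- 4 was set apart by its values for these same copies, which favours such a split. How often other genes split in this way was not tested. All but Gm11478 match Ftl1 and may share reads, so the copies are not separate observations. Ftl2-ps held 2843 to 4379 normalized counts in the intact livers, 32092 to 42280 in the 7 other deleted livers and 3109 in Tip30+/- 4. Gm15590 held 1801 to 2639, 12519 to 15395 and 1967 in the same order. Gm11478 held 64.5 to 118 in the intact livers, 155 to 259 in the 7 other deleted livers and 95.2 in Tip30+/- 4. The ratio of the median of the 7 to the intact median ran from 2.25 for Gm11478 to 13.7 for Mir692-1.

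Over all 8 deleted livers Mir692-1 rose by 3.26 ± 0.46 on the log2 scale (adjusted p = 0.00508 by limma), Ftl1-ps2 by 3.23 ± 0.42 (0.00508) and Ftl2-ps by 3.00 ± 0.43 (0.00714). Gm12164 rose by 2.57 ± 0.34 (0.00508), Gm15590 by 2.41 ± 0.34 (0.00606) and Gm11478 by 0.97 ± 0.17 (0.0169). Without Tip30+/- 4 the log2 rise was 3.44 for Ftl2-ps and 1.09 for Gm11478, the last with an adjusted p of 0.00111. That liver was singled out by its low values for these same genes, which favours a larger rise and a smaller p without it. Leaving out Tip30+/- 3 instead ended the call of Gm11478 alone among the 6 (adjusted p = 0.0546). Without the 4 livers low in Zhx2 the log2 rise was 3.10 for Ftl2-ps and 1.10 for Gm11478, and none of the 6 passed (adjusted p = 0.336 to 0.45).

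**Figure D1:**
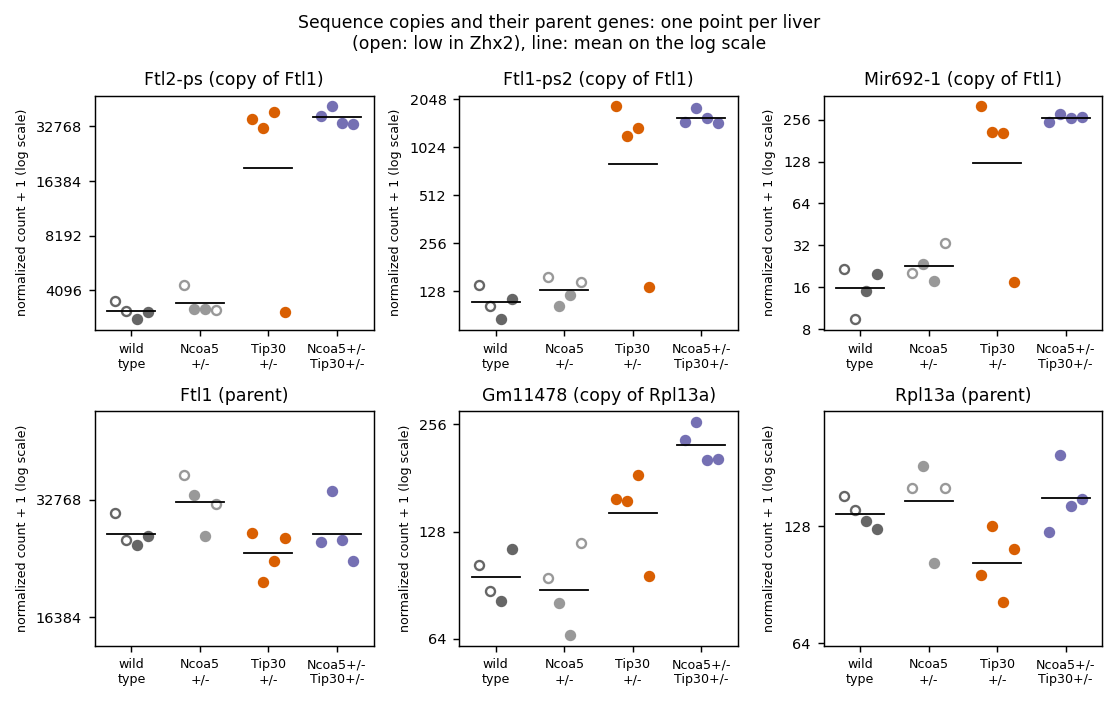
Normalized count plus 1 (log axis) of 4 copies and their 2 parent genes in each liver, by genotype; points are livers, open points are the 4 livers low in Zhx2, and lines are means on the log scale. In the panels of copies Tip30+/- 4 lies with the intact livers, as for Ftl2-ps at 3109, while the panels of parents show no such gap.

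The parents themselves did not pass. Ftl1 held 25099 to 37975 normalized counts in the intact and 20164 to 34612 in the deleted livers (log2 change -0.22 ± 0.10, adjusted p = 0.394 by limma). Rpl13a differed by -0.20 ± 0.14 (adjusted p = 0.619). Summing all 25 genes of the table that match Ftl1, the parent included, gave 31556 to 47695 normalized counts in the intact livers. The sum was 68500 to 96786 in the 7 other deleted livers and 33403 in Tip30+/- 4 (log2 change of 0.95 over all 16 livers, exact permutation p = 0.00122). The heavy chain gene Fth1 on chromosome 19 held 36119 to 44616 in the intact and 35337 to 49014 in the deleted livers (log2 change 0.06 ± 0.08, adjusted p = 0.813).

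Of 945 processed pseudogenes and miRNA genes tested, 21 had their best matching parent within 5 Mb of Htatip2, and 7 of these were called (33.3%). Of the others, 0 of 52 with a parent elsewhere on chromosome 7, 0 of 839 with a parent on another chromosome and 0 of 33 without a parent were called. Among the 14 copies near Htatip2 that did not pass were copies of Ldha, Rpl18 and Tsg101, whose parents lie 2.86 to 4.05 Mb away. They also included 3 short copies of Ftl1, Mir692-2, Gm22751 and Gm22774, with log2 changes of -0.47, -0.43 and -0.75.

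Hcn3, the gene of the hyperpolarization-activated channel that the series title names, rose over both Ncoa5 backgrounds together. Hcn3 (ENSMUSG00000028051, chromosome 3, 89146074 to 89160196, minus strand) held 440, 262, 271 and 423 normalized counts in wild type and 1155, 1121, 1224 and 1047 in Tip30+/-. It held 674, 1117, 890 and 498 in Ncoa5+/- and 1275, 1754, 2135 and 1990 in Ncoa5+/-Tip30+/-. Within each background every deleted liver lay above every intact one, and over both the classes overlapped because Ncoa5+/- 2 at 1117 exceeded Tip30+/- 4 at 1047. Hcn3 rose 2.78-fold (log2 1.47 ± 0.17, adjusted p = 0.00116 by limma, exact permutation p = 0.000408). It also passed without the 4 livers low in Zhx2 (adjusted p = 0.0477) but not without the Ncoa5 term (adjusted p = 0.0559) or with Zhx2 as a covariate. Within Ncoa5+/+ livers it passed (log2 1.74 ± 0.23, adjusted p = 0.0099), and within Ncoa5+/- livers it did not (1.21 ± 0.23, adjusted p = 0.174). Pklr, the liver pyruvate kinase gene, overlaps the end of Hcn3 on the opposite strand, and no strand marking is stated for the libraries. It held 4605 to 9035 in the intact and 7978 to 13267 in the deleted livers, a log2 change of 0.68 ± 0.14 that did not pass (adjusted p = 0.0679). Part of the reads of either gene could belong to the other, which was not tested. Of the 9 genes listed for the HCN family and the Hcn3 neighbourhood, 1 rose and 0 fell.

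Other protein-coding genes that rose include those of a filament protein, a G protein subunit, an orphan receptor and enzymes. Synm, which encodes the intermediate filament protein synemin, held 20.5 to 48.1 normalized counts (median 34.2) in the intact and 59.5 to 107 (median 81.1) in the deleted livers, with no overlap. It rose 2.54-fold (log2 1.35 ± 0.20, adjusted p = 0.00508) and by 1.39 without the 4 livers low in Zhx2 (adjusted p = 0.0477). With Zhx2 as a covariate Synm did not pass (adjusted p = 0.0825). Cyp46a1, a cholesterol hydroxylase best known from neurons, held 55.7 to 150 (median 104) in the intact and 159 to 334 (median 195) in the deleted livers. It rose 2.13-fold without overlap (log2 1.09 ± 0.17, adjusted p = 0.00579). Gna14, a G protein alpha subunit that activates phospholipase C, rose 2.11-fold from 27.0 to 65.4 (median 42.3) to 49.4 to 140 (median 103), and the classes overlapped (adjusted p = 0.00508). Gpr135, an orphan receptor gene, rose 1.72-fold without overlap (63.1 to 105 against 114 to 188, adjusted p = 0.0149). Dhdh, a dihydrodiol dehydrogenase gene 4.29 Mb from Htatip2, held 2707 to 4571 in the intact and 4361 to 6886 in the deleted livers and rose 1.62-fold (adjusted p = 0.00579).

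The rises of Synm, Cyp46a1, Gna14, Gpr135, Dhdh and Hcn3 passed in all 16 fits that leave out 1 mouse, those below in 3 to 8 of them. Without the 4 livers low in Zhx2 Cyp46a1, Gna14, Gpr135 and Dhdh did not pass (adjusted p = 0.336 to 0.589). Over all settings tried, this one included, the lowest log2 changes of these genes were 0.77, 0.92, 0.63 and 0.6 in the same order. Pop4, a subunit of ribonuclease P, rose 1.60-fold (116 to 183 against 191 to 342, adjusted p = 0.0289) without overlap between classes. Cyp2r1, the main vitamin D hydroxylase of liver, rose 1.64-fold (adjusted p = 0.045) and the secreted protease-inhibitor-like gene Wfdc2 2.77-fold (adjusted p = 0.045), both with overlap. The non-coding RNA gene Ipw of the imprinted Prader-Willi region, named Snhg14 in GENCODE, rose 2.19-fold (40.3 to 86.9 against 80.4 to 248, adjusted p = 0.0457). Its neighbour Snrpn differed by 0.85 ± 0.18 without passing (adjusted p = 0.068). Gm15545, an antisense gene whose reads cannot be told from those of overlapping genes without strand, rose 2.48-fold (adjusted p = 0.0443). Pop4, Cyp2r1, Wfdc2, Ipw and Gm15545 did not pass without the 4 livers low in Zhx2 either.

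The genes that fell include a channel, a signalling ligand, a ubiquitin ligase and a mitochondrial phosphatase. Trpm6, a magnesium channel with a kinase domain, held 138 and 115 normalized counts in wild type 1 and 2, and 102 and 125 in Ncoa5+/- 1 and 4, the 4 livers low in Zhx2. It held 11.2 to 57.6 in the other intact livers and 4.10 to 28.9 in the deleted ones. It fell by 2.62 ± 0.49 on the log2 scale (adjusted p = 0.0368). Without those 4 livers the log2 change of Trpm6 was -1.66 (adjusted p = 0.889). Lysmd2, a LysM domain gene, held 22.4 to 112 (median 81.1) in the intact and 8.53 to 39.9 (median 11.5) in the deleted livers. It fell by 1.86 ± 0.37 (adjusted p = 0.045), and without the 4 livers its log2 change was -1.11 (adjusted p = 1). Plppr1, of the phospholipid phosphatase-related family, fell by 1.98 ± 0.40 (adjusted p = 0.0457), with a log2 change of -1.32 without them (adjusted p = 1). Pdp1, the phosphatase that activates pyruvate dehydrogenase, held 36.5 to 106 (median 74.3) in the intact and 21.3 to 43.3 (median 32.6) in the deleted livers. It fell by 1.08 ± 0.21 (adjusted p = 0.0431), with a log2 change of -0.72 without them (adjusted p = 1). Trpm6 and Plppr1 passed in 5, and Lysmd2 and Pdp1 in 4, of the 16 fits that leave out 1 mouse. Whether Zhx2 level has a part in these falls was not tested.

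Wnt5a, a ligand of non-canonical Wnt signalling, held 264, 233, 206 and 212 normalized counts in wild type and 122, 140, 126 and 123 in Tip30+/-. It held 141, 122, 158 and 162 in Ncoa5+/- and 113, 97.8, 65.9 and 99.0 in Ncoa5+/-Tip30+/-, so the groups did not overlap within either background. It fell to 59.9% of the intact level (log2 change -0.74 ± 0.11, adjusted p = 0.00579), also in all 16 fits that leave out 1 mouse, with a log2 change of -0.65 without the 4 livers low in Zhx2 (adjusted p = 0.45). Trim6, a ubiquitin ligase gene of the chromosome 7 TRIM cluster, fell to 33.7% (29.7 to 83.1 against 7.67 to 31.2, adjusted p = 0.0169). Its call was lost without any 1 of Ncoa5+/- 4, Tip30+/- 1 and Tip30+/- 3, where the highest adjusted p was 0.0546. Trim6 also did not pass without the 4 livers low in Zhx2 (adjusted p = 0.45). Of 11 genes listed as TRIM ligases on chromosome 7 it alone passed, and Trim12a and Trim34b stood at 3.00 ± 0.81 and -1.19 ± 0.34.

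The linker histone gene Hist1h1c fell to 53.1% (adjusted p = 0.035), the tight junction gene Cldn1 to 63.9% (adjusted p = 0.045) and the protease gene Tmprss2 to 62.3% (adjusted p = 0.0443). Trim14, an adaptor of antiviral signalling, fell to 68.7% (adjusted p = 0.0457), and Abtb2, which encodes an ankyrin and BTB domain protein, to 62.3% (adjusted p = 0.0289). The calcium sensor gene Ncald fell to 72.3% (adjusted p = 0.0354) and Selenos, a selenoprotein of the endoplasmic reticulum, to 76.2% (adjusted p = 0.0404). Champ1, which acts in chromosome alignment, fell to 74.3% without overlap (208 to 325 against 169 to 205, adjusted p = 0.0457). Dpf1, a chromatin remodelling subunit, and the non-coding Gm34121 fell to 24.4% and 34.5%. Both lie below a mean of 50 in either class and are named because they complete the 17 genes that fell. Each of the genes in this paragraph passed in 3 to 8 of the 16 fits that leave out 1 mouse. Without the 4 livers low in Zhx2 none of them passed, and the log2 change of Tmprss2 was -0.37 against -0.68 over all livers.

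**Figure D2:**
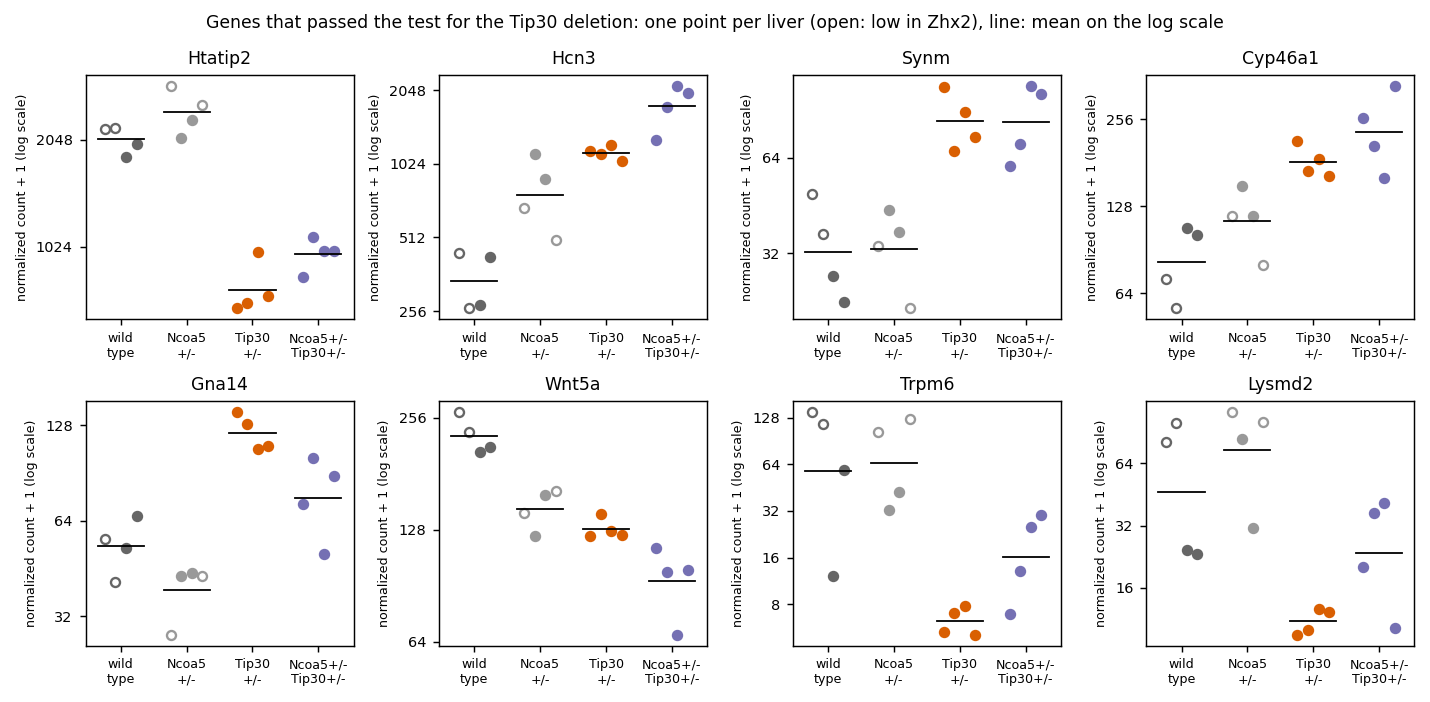
Normalized count plus 1 (log axis) of 8 called genes in each liver by genotype; points are livers, open points are the 4 livers low in Zhx2, and lines are means on the log scale. Htatip2, Synm and Cyp46a1 do not overlap between deleted and intact livers, whereas for Trpm6 and Lysmd2 the open points lie at 79.8 to 138 and several filled intact points lie much lower.

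By position, 11 of the 36 called genes lie on chromosome 7, where Htatip2 is, 6 higher and 5 lower. That is 0.933% of the 1179 genes tested there (10 of 1178 without Htatip2, 0.849%), against 25 of 14084 elsewhere (0.178%). Besides Htatip2 those on chromosome 7 were Pop4, Dhdh, Gm15545, Gm34121, Ipw, Selenos, Synm, Dpf1, Trim6 and Cyp2r1. The genes called elsewhere include the sequence copies described above, whose parents lie near Htatip2. An unadjusted p below 0.05 was held by 28.9% of the 90 other genes within 5 Mb of Htatip2 and by 23.7% of the 190 between 5 and 20 Mb. The share was 11.4% between 20 and 40 Mb, 12% beyond that and 11.7% off chromosome 7. Without the 4 livers low in Zhx2 these shares were 13.3%, 18.9%, 5.43%, 4.93% and 3.76%.

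**Figure D3:**
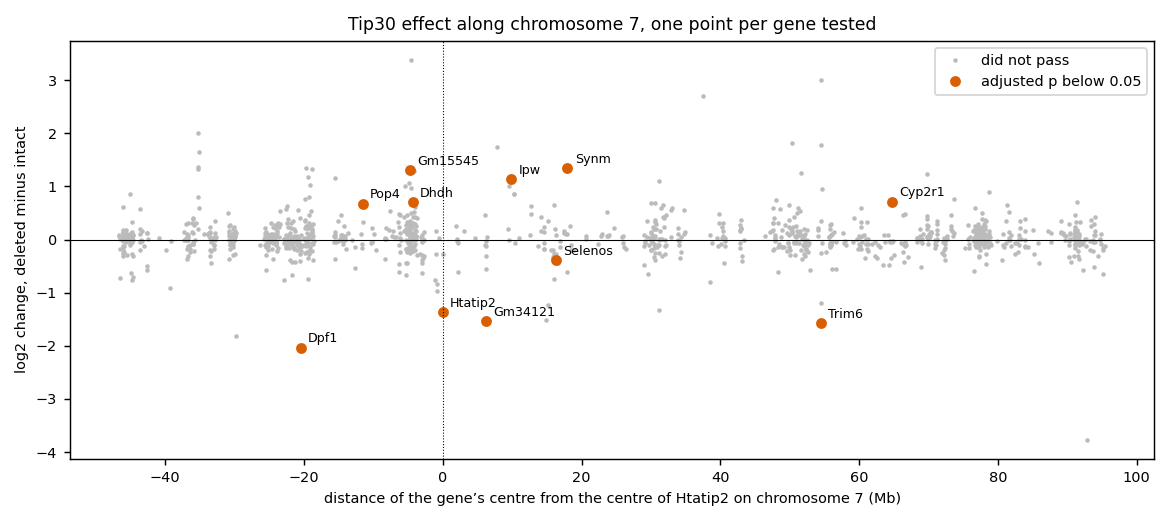
Log2 change (deleted minus intact) of each gene tested on chromosome 7 against the distance of its centre from that of Htatip2 in Mb; large points have an adjusted p below 0.05. The 11 called genes lie on both sides of Htatip2, 8 of them including Htatip2 within 20 Mb.

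Tip30+/- 4 went with different classes at different places on chromosome 7. On the side of Htatip2 that holds Ftl1, it lay with the intact livers for Gm15545 (52.2 against 104 to 165 in the 7 other deleted livers, 4.78 Mb away). The same held for Slc6a16, a transporter-family gene 4.51 Mb away, at 7.17 against 118 to 208, where the intact livers held 2.25 to 34.4. Slc6a16 did not pass over all 16 livers (log2 3.38 ± 0.70, adjusted p = 0.0726). On the other side it lay with the deleted livers for Gm34121 (17.4, intact 21.4 to 37.4), Ipw (123, intact 40.3 to 86.9) and Synm (73.7, intact 20.5 to 48.1). For Dhdh, 4.29 Mb away on the Ftl1 side, its 4910 lay above the highest intact value of 4571. Farther out on the Ftl1 side it also lay with the deleted livers for Pop4 (deleted 191 to 342, intact 116 to 183). These genes were chosen after their values were seen, and the cause was not tested.

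Within each Ncoa5 background few genes passed alone. In Ncoa5+/+ livers (Tip30+/- against wild type) 2 genes were called (0.0131%), Htatip2 at -1.41 ± 0.13 and Hcn3 at 1.74 ± 0.23. In Ncoa5+/- livers (Ncoa5+/-Tip30+/- against Ncoa5+/-) 3 genes were called (0.0197%), among them Htatip2 at -1.33 ± 0.13 and Gm11478 at 1.35 ± 0.21. Unadjusted p below 0.05 was held by 7.34% and 8.93% of genes. DESeq2 on the whole reads called 43 and 32 genes in these comparisons. All 36 genes called over both backgrounds had the same sign in each, which their selection on the joint effect favours. Without Tip30+/- 4 the comparison in Ncoa5+/+ livers called 8 genes, among them Gm15590, Mir692-1, Gm12164, Ftl2-ps and Ftl1-ps2. Tip30+/- 4 was singled out by its low values for these copies, which favours their call without it.

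**Figure D4:**
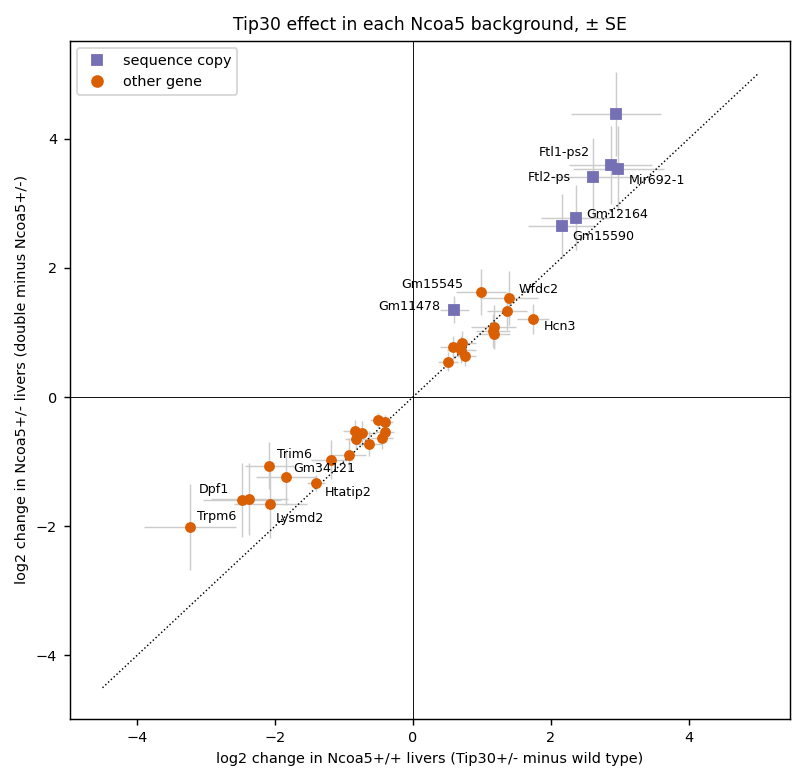
Log2 change of the 36 called genes in Ncoa5+/+ livers (horizontal) against that in Ncoa5+/- livers (vertical), with SE bars; squares are sequence copies, circles other genes, and the dotted line marks equal change. All points lie in the quadrants of equal sign, with Trpm6 at -3.23 and -2.01.

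No difference of the Tip30 effect between backgrounds passed. The interaction called 0 genes by limma (0%) and 0 by edgeR, and 650 genes (4.26%) held an unadjusted p below 0.05. DESeq2 called 1, Cryaa, a crystallin gene of the eye lens, with a fitted log2 value of 25.55 that is no measure of size. For Htatip2 the interaction was 0.08 ± 0.18 (unadjusted p = 0.675) and for Hcn3 -0.53 ± 0.33 (unadjusted p = 0.124). The 4 genes of smallest p were Gm44891 (2.17 ± 0.49), Cyp21a2-ps (1.65 ± 0.40), Gm3235 (3.49 ± 0.84) and Riox1 (-0.77 ± 0.19, a histone and ribosomal protein hydroxylase), all with an adjusted p of 0.95.

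Genes around Tip30's known roles showed little besides Htatip2 itself. Of 20 genes for Tip30 partners and EGF receptor traffic, 0 rose and 1, Htatip2, fell, with a median log2 change of -0.01. Kpnb1, which encodes importin beta, had a log2 change of -0.29 ± 0.12 (adjusted p = 0.326). Of 9 oestrogen receptor and target genes 0 passed (median 0.04), Sult1e1 at 1.40 ± 0.54 and Cyp7b1 at -0.70 ± 0.20 being among those with the smallest p. Of 23 genes of G protein and purinergic signalling Gna14 rose and 0 fell, and the ATP receptor gene P2ry2 stood at 0.59 ± 0.15 (adjusted p = 0.127). Of 21 Wnt ligands, receptors and R-spondins 1 fell, Wnt5a, and 0 rose (median -0.10).

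Metabolic lists held no called gene. Over all 15263 genes tested 7627 were higher in the deleted livers, 782 of them at an unadjusted p below 0.05. Of 30 genes of fatty acid and triglyceride synthesis 26 were higher in the deleted livers, 6 of them at an unadjusted p below 0.05 (median log2 change 0.21, and 0.28 without the 4 livers low in Zhx2). Khk, the fructokinase gene, held 10108 to 18105 normalized counts in the intact and 16862 to 27217 in the deleted livers (log2 0.48 ± 0.12, adjusted p = 0.127). Mogat1 and Dgat2, acyltransferases of triglyceride synthesis, stood at 0.92 ± 0.27 and 0.28 ± 0.10. Of 31 genes of fatty acid oxidation 16 were higher (median 0.01). Cyp4a14, a fatty acid hydroxylase, held 4039 to 16264 in the intact and 1446 to 7170 in the deleted livers (log2 -1.22 ± 0.25, adjusted p = 0.07). Of 25 genes of bile acid synthesis and transport 15 were higher (median 0.02), with the hydroxylase Cyp8b1 at -1.14 ± 0.30 (adjusted p = 0.165). Of 20 core clock and output genes 13 were higher, 5 at an unadjusted p below 0.05 (median 0.22, and 0.11 without the 4 livers), with Per1 at 0.92 ± 0.26.

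Lists of stress and defence genes held no called gene either. Over all genes tested 7636 were lower, 1042 of them at an unadjusted p below 0.05, with a median of 0. Of 30 type I interferon response genes 29 were lower in the deleted livers, 11 at an unadjusted p below 0.05, with a median of -0.29. Without the 4 livers low in Zhx2 that median was -0.05. Ddx58, the sensor RIG-I, held 733 to 1154 in the intact and 580 to 796 in the deleted livers (log2 -0.47 ± 0.10, adjusted p = 0.0592). Of 21 unfolded protein and heat shock genes 18 were lower, 7 at an unadjusted p below 0.05 (median -0.29, and -0.25 without the 4 livers). Hspa5, the main chaperone of the endoplasmic reticulum, held 24620 to 43956 in the intact and 14392 to 28394 in the deleted livers (log2 -0.59 ± 0.15, adjusted p = 0.117). Of 25 acute phase genes 21 were lower (median -0.18) and of 26 cell cycle genes 21 (median -0.29, and -0.08 without the 4 livers). The medians of 27 p53 targets, 20 MHC and antigen presentation genes and 19 NF-kB and cytokine genes were -0.04, -0.02 and -0.08.

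**Figure D5:**
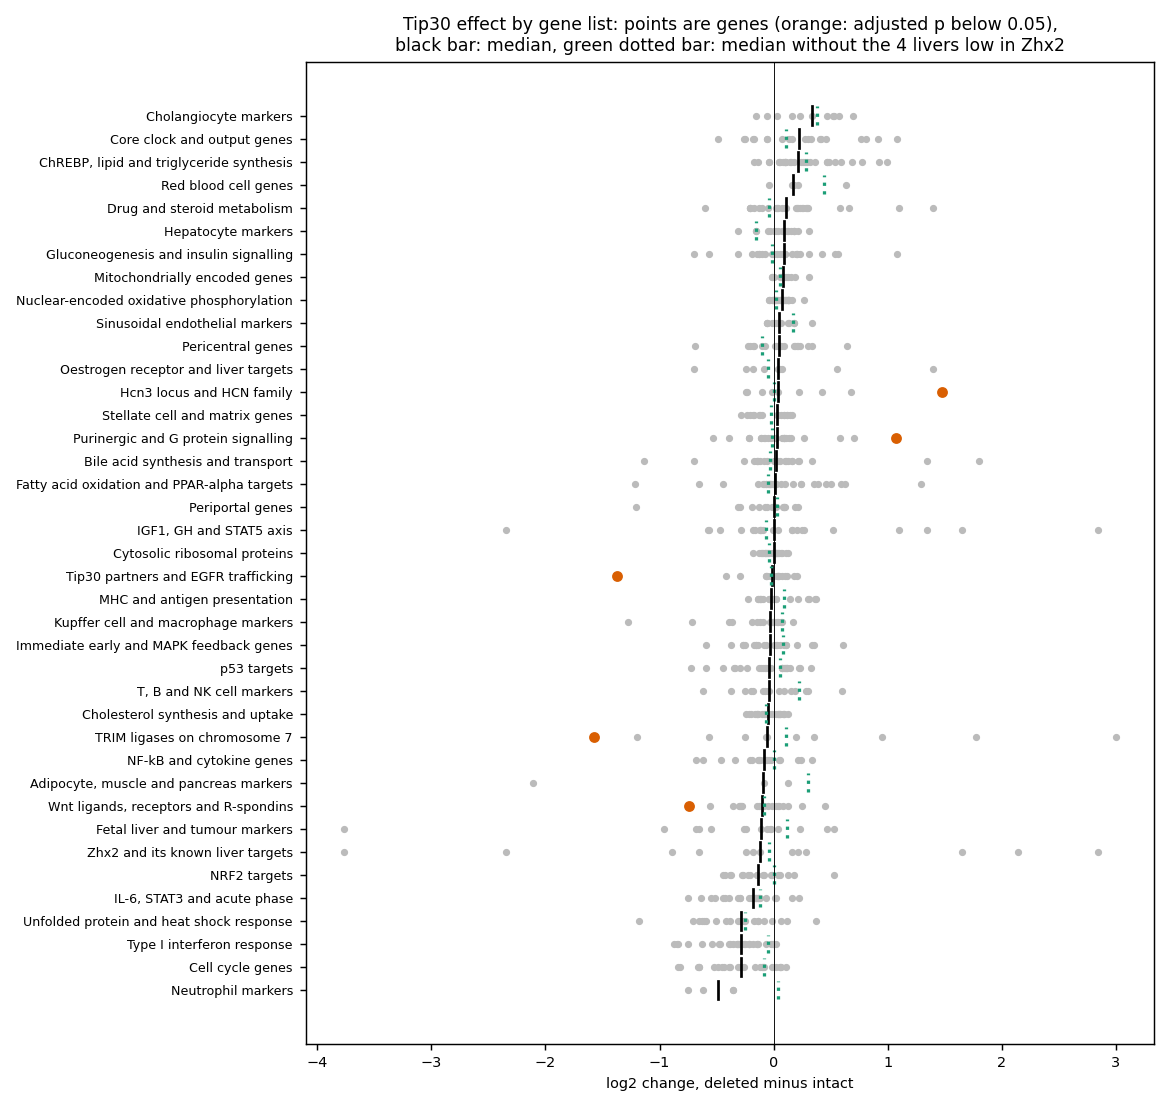
Log2 change (deleted minus intact) of each tested gene in 39 gene lists, ordered by the list's median; orange points have an adjusted p below 0.05, black bars are medians and green dotted bars medians without the 4 livers low in Zhx2. The medians lie between -0.49 (4 neutrophil genes) and 0.34 (11 cholangiocyte genes), and 5 lists hold a called gene.

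Of 13 genes listed as Zhx2 and its known liver targets 0 passed. H19, a fetal RNA that Zhx2 represses, held 5.21 to 2885 normalized counts in the intact and 2.56 to 56.4 in the deleted livers (log2 -3.76 ± 1.23, adjusted p = 0.247), and -0.99 without the 4 livers. Hsd3b5, a steroid dehydrogenase gene, stood at -2.35 ± 0.93 and at -0.44 without them. Afp, the fetal albumin-like gene, differed by -0.24 ± 0.43, and by 0.20 without them. Afp, like Fth1 above, was added after values were seen.

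Markers of other cell types overlapped between classes. Summed macrophage markers (18 genes) came to 7407 to 26808 normalized counts in the intact and 12292 to 22059 in the deleted livers, and lymphocyte markers (20 genes) to 126 to 570 and 168 to 629. Neutrophil markers (11 genes) summed to 77.4 to 354 and 57.3 to 194, endothelial markers (15) to 6870 to 14220 and 8298 to 12906, cholangiocyte markers (13) to 3410 to 5316 and 3662 to 5981, and stellate cell and matrix genes (20) to 11514 to 18948 and 12941 to 18107. Red blood cell genes (8) summed to 16255 to 51466 and 15748 to 90188, and adipocyte, muscle and pancreas markers (13) to 830 to 1275 and 680 to 1212. None of the listed markers in the table was at 0 in all livers. In whole liver, fewer cells of a type and less RNA per cell cannot be told apart.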

How the data were processed

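The deposited table holds signal values, read counts per gene that the authors divided by a size factor per library with DESeq2 1.28.1, per the submitters' processing notes. These notes also name Trimmomatic 0.36, STAR 2.6.0c and GRCm38. The sources used here do not give the gene counter, annotation release or strand setting. In each of 16 libraries 100% of values were whole multiples of 1 step (tolerance 0.001 of a read), which gave back the whole reads. 0 columns of other samples were present. Of 30199 genes 18821 have a symbol in the table, 11328 got theirs from a gene table and 50 have an identifier only. Positions are from GENCODE M21.

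The main test was limma 3.58.1 (trend, robust, R 4.3.3) on log2 of the normalized count plus 1, for Tip30 genotype with Ncoa5 genotype as an additive term. Means of 4 groups gave the effect within each background and the interaction. Tests were 2-sided with Benjamini-Hochberg adjustment over 15263 genes (mean of at least 10) and a call at an adjusted p below 0.05. Where no tool is named an adjusted p is from limma, folds are powers of 2 of log2(value + 1) differences, and errors are SE. Exact permutation tests rearranged Tip30 labels within each Ncoa5 genotype. Alternatives were DESeq2 1.42.0 and edgeR 4.0.16 on the whole reads, other pseudocounts, filters, scalings and designs, and each mouse left out. The fits without the 4 livers low in Zhx2, with Zhx2 as a covariate, and edgeR within each background were chosen after seeing the data. The chain was tested on simulated data.

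Parents of pseudogenes and miRNA genes were the best blastn 2.17.0 match to a coding transcript (at least 80% identity over 60 bases). Named genes are Htatip2, Ncoa5, Hcn3, Pklr, the called genes with a class mean of at least 50 (34 of 36), up to 4 members of smallest p per list, genes within 5 Mb of Htatip2 and the 4 of smallest interaction p. The members, the rule and the 39 gene lists (764 of 828 members tested) were chosen with earlier results of these data known. Some genes that these rules name are not reported here.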

Additional observations from a re-analysis of the deposited data

Results flagged for a closer look

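For 34 of the 36 called genes (the other 2 are not reported here), Ncoa5 and Pklr, each group of 4 livers was searched for a liver far from the other 3 (Dixon's test at the 95% level, on the log scale). Of 144 such groups 11 held such a liver, and chance flags about 1 in 20.

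In 5 of the 11 the liver was Tip30+/- 4, always the lowest of its group. It held 3109 normalized counts of Ftl2-ps against 32092 to 39299 in the other 3, 1967 of Gm15590 against 12800 to 15395, and 134 of Ftl1-ps2 against 1208 to 1844. It held 16.4 of Mir692-1 against 203 to 319 and 52.2 of Gm15545 against 145 to 165. All 5 levels lie within the range of the intact livers.

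The other 6 are scattered over 4 livers. Ncoa5+/- 1 was lowest for Gna14 (27.0 against 41.8 to 42.7) and Gpr135 (74.3 against 87.6 to 89.6) and highest for Ftl2-ps (4379 against 3217 to 3245). Ncoa5+/- 3 was lowest for Pdp1 (58.3 against 74.3 to 75.0), and Ncoa5+/-Tip30+/- 2 highest for Pdp1 (43.3 against 32.2 to 33.8). Ncoa5+/-Tip30+/- 3 was lowest for Wfdc2 (36.4 against 95.9 to 106).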

How the results depend on the processing

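Of 1038 values of the 36 called genes under other settings, 1038 kept their direction, 693 also stayed past the threshold and 345 did not. The kept direction is favoured by the selection of these genes in the same mice. Called in all 16 fits that leave out 1 mouse were 14 genes. The count of 36 was 267 with DESeq2 (93 higher, 174 lower, 1.75%), 40 with edgeR (0.262%), 14 without the Ncoa5 term (12 higher, 2 lower), and 20 as the average of both backgrounds in 4 group means (14 higher, 6 lower). It was 4 without the 4 livers low in Zhx2 and 2 with Zhx2 as a covariate (Htatip2 among them). Pseudocounts of 0.5 and 5, no filter, a mean of at least 50, TMM scaling, a mouse tag covariate and moderation that is not robust gave 31 to 53. Leaving out each mouse gave 14 to 147. In Ncoa5+/+ livers the count of 2 was 43 with DESeq2 and 1 to 8 with a mouse left out. In Ncoa5+/- livers the count of 3 was 32 with DESeq2, 9 with the 2 groups alone and 1 to 2 with a mouse left out. The interaction's 0 was 1 with DESeq2 and 0 in all 16 fits with a mouse left out. A group left with 3 mice was assumed to vary like the others. The uncalled change of Ncoa5, at -0.01, was -0.04 to 0.02 with a mouse left out, with the sign reversed (0, 0.01 or 0.02) in 7 of these fits, and 0.01 without the 4 livers low in Zhx2. The causes were not tested. The labels carry no replicate numbers. No paired analysis was possible because no label ties mice of different genotypes. Low genes rest on few reads: Dpf1 held 0 to 8.47 normalized counts in the deleted livers.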
